A study of Sus scrofa with 81 samples.

Results

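Skeletal muscle of suckling pigs was compared between the stages labelled D9 and D20, read as days after birth. The 6 libraries of these stages, 3 at D9 and 3 at D20, were selected by stage label from 81 libraries that cover 27 stages. All are from pigs of the strain written Landrance in the labels. Both groups carry the same labels apart from the stage, and no treatment or genotype is given. The labels name neither the muscle, the sex, the litter nor the diet, and "suckling" is read from the age. Whether each library is its own animal is not stated, so p-values measure the variation among libraries only, part of which may be technical. Total RNA was depleted of ribosomal RNA and sequenced from strand-specific paired-end libraries. Fast skeletal muscle markers were abundant in every library: MYLPF, the fast regulatory myosin light chain, had 15247 to 21545 FPKM.

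In the weeks after birth, pig muscle fibres grow by enlargement rather than by new fibre formation, and fetal and neonatal isoforms of contractile proteins give way to adult ones. Myosin heavy chain isoforms set the speed of a fibre, cardiac-type actin and troponin are made by young skeletal muscle, and sterol synthesis is governed by transcription factors that are held in the endoplasmic reticulum when sterols are plentiful. The interferon response is a set of antiviral genes that many cell types switch on together.

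Values are FPKM, a level scaled for transcript length and for the size of the library, and fold changes are D20 minus D9 on the log2(FPKM + 1) scale, with standard errors from limma. Calls required a limma adjusted p under 0.05 and a log2 fold change of 1 or more in size. "Rose" and "fell" are used for called genes.

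Some libraries stood apart before any gene was considered. Across genes, replicate 1 of D9 correlated with the other D9 libraries at r = 0.981 and 0.983 and with the D20 libraries at 0.982 to 0.983, whereas replicates 2 and 3 of D9 correlated at 0.993. These r values describe pairs of libraries across genes, which are not independent. Summed FPKM ran from 340312 to 399150 and 10510 to 10961 genes reached 1 FPKM. The steps of the low values put the depth of the other 5 libraries at 0.783 to 0.931 of that of replicate 1 of D9. In replicate 1 of D20, 1 uncharacterised transcript, LOC106509199, took 7.87% of the summed FPKM, against 0.197 to 0.873% in the other 5. In FPKM, those other 5 lay below every postnatal library outside D9 and D20 for this transcript. Liver transcripts were also present in replicate 1 of D20, as described below.

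Between D9 and D20, 40 of 14220 genes were called, 0.281% of those tested. Of these, 13 rose (0.0914%) and 27 fell (0.19%). The genes that fell included cardiac and neonatal contractile genes, INSIG1 and FDPS, which act in sterol synthesis, the folate enzyme MTHFD1, and immune genes. Those that rose included the muscle protein IGFN1, the transferrin receptor TFRC and the ribosome assembly factor EMG1. Protein-coding genes made up 24 of the 27 that fell and 6 of the 13 that rose, beside 13026 of the 14220 tested. The D9 and D20 values did not overlap for 34 of the 40, 12 higher and 22 lower. They overlapped for TFRC, CXCL13, LDHB, C2, CFB and a locus of the authors, XLOC_246832. Over all genes tested, 16.5% did not overlap, 7.74% with every D20 value above every D9 value and 8.75% with every D20 value below.

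The number of calls rested on the spread pooled over all stages. A limma fit to the 6 libraries alone called 1 of 14191 genes (0.00705%), LOC110261592, which was higher, and had 1553 genes at an unadjusted p below 0.05. A fit to the 36 postnatal libraries called 14 (0.0985%), 4 higher (0.0281%) and 10 lower (0.0704%), of which 13 were among the 40. At an adjusted p alone, 148 genes passed (1.04%), 46 higher (0.323%) and 102 lower (0.717%). For 21 of the 40 the SD within D9 exceeded the SD pooled over stages. Leaving out 1 library at a time gave 21 to 86 calls. It gave 86 without replicate 1 of D9, 21 without replicate 3 of D9 and 61 without replicate 1 of D20. All 40 genes kept their sign in each of these 6 fits, which was fixed in advance for the 34 whose values did not overlap. In all 6 fits, 11 stayed called. Among those that rose these were IGFN1, LOC110261592, EMG1 and XLOC_072253. Among those that fell they were SAA3, LOC100515902, ARHGAP36, ACTC1, INSIG1, EIF4EBP3 and MTHFD1. Of these 11, ACTC1, IGFN1 and SAA3 were not called in the fit to the postnatal libraries, with limma adjusted p of 0.061, 0.080 and 0.080.

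**Figure D1:**
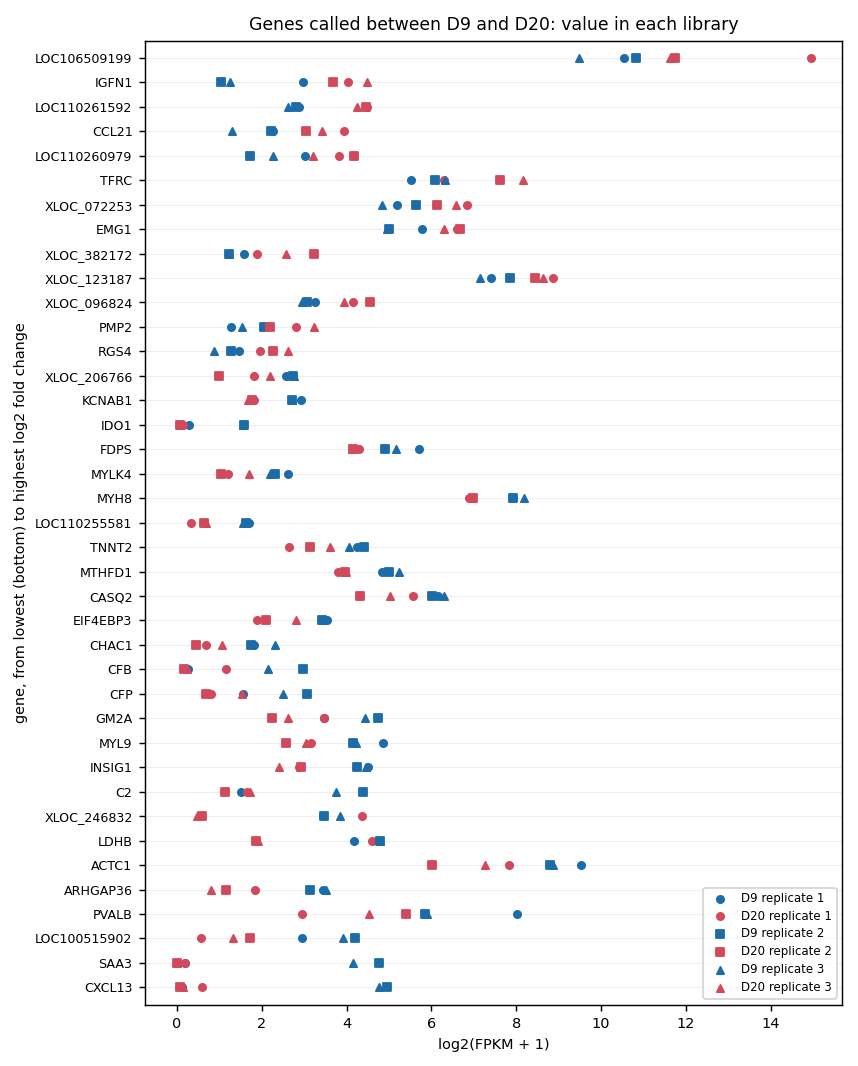
Value of the called genes, 1 left out, in each library as log2(FPKM + 1), D9 in blue and D20 in red, with a marker shape for each replicate number. Replicate 1 of D9 (blue circles) lies with the D20 libraries for CXCL13, SAA3, C2, CFB and IDO1, and replicate 1 of D20 (red circles) lies with D9 for LDHB and XLOC_246832.

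Contractile genes of young muscle fell. ACTC1, the cardiac alpha-actin that is also made by developing skeletal muscle, had 736, 445 and 463 FPKM in the D9 libraries (replicates 1 to 3, as throughout) and 227, 63.3 and 152 FPKM at D20. Every D20 value was below every D9 value, and the log2 fold change was -2.03 (SE 0.35, limma adjusted p = 3.1e-04, and 0.061 in the postnatal libraries). MYH8, the perinatal myosin heavy chain, had 240, 243 and 291 FPKM at D9 and 117, 124 and 124 FPKM at D20. Its libraries were tight within each stage and did not overlap, with a log2 fold change of -1.07 (SE 0.21, limma adjusted p = 0.0018), and without replicate 3 of D9 the fold change, -0.98, no longer reached 1. Both genes were lower still at D30, at mean FPKM of 34.6 for ACTC1 and 64.9 for MYH8.

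TNNT2, the cardiac troponin T, had 17.9, 20.2 and 15.5 FPKM at D9 and 5.24, 7.81 and 11.1 FPKM at D20 (log2 fold change -1.10, SE 0.29, limma adjusted p = 0.040). At D0 it had 1.89, 2.28 and 2.42 FPKM, below every D20 value, so its fall was not a steady decline from birth. Its groups did not overlap, but the call was lost in 5 of the 6 fits that left out a library, with limma adjusted p up to 0.22 without replicate 1 of D20; it held only without replicate 3 of D20. Of the 8 genes listed as developmental contractile, ACTC1, MYH8 and TNNT2 were the 3 called, against 0.19% of all genes tested that were called lower. For 4 of the 8 every D20 value was below every D9 value, against 8.75% of all genes. The median log2 fold change was -0.56, against -0.0029 over all genes tested. The embryonic myosin MYH3 had 68.8, 25.9 and 36.6 FPKM at D9 and 35.4, 26.3 and 22.3 at D20, which overlapped (log2 fold change -0.53, limma adjusted p = 0.56). Reads of near-identical myosin heavy chains can be split between copies, so single members of that family are uncertain.

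CASQ2, a calcium-storing protein of cardiac and slow fibres, had 70.6, 63.5 and 77.2 FPKM at D9 and 46.3, 18.99 and 31.5 at D20. The groups did not overlap and the log2 fold change was -1.19 (SE 0.27, limma adjusted p = 0.0089), with adjusted p of 0.084 and 0.21 without replicate 3 of D9 or replicate 2 of D20. It was the only member called of the 12 in the slow-fibre list (median -0.072), against 0.19% of all genes tested that were called lower. PVALB, the calcium buffer of fast fibres, had 259, 56.2 and 58.3 FPKM at D9 and 6.70, 41.1 and 22.1 at D20. It was by far highest in replicate 1 of D9, and the groups did not overlap (log2 fold change -2.29, SE 0.59, limma adjusted p = 0.032). Its call was lost without replicate 1 of D9 (adjusted p = 0.30), replicate 3 of D9 (0.053), replicate 1 of D20 (0.25) or replicate 3 of D20 (0.084). PVALB was the only member called of the 15 in the fast-fibre list (median -0.011), beside the same 0.19% of all genes called lower.

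Adult myosins did not pass. MYH1, the fast 2X myosin, had 4686, 4451 and 5490 FPKM at D9 and 2617, 2654 and 2870 at D20. The groups did not overlap (log2 fold change -0.84, SE 0.27, limma adjusted p = 0.13). MYH2, the fast 2A myosin, had 1002, 1169 and 1215 FPKM at D9 and 818, 672 and 581 at D20. It did not overlap either (log2 fold change -0.72, SE 0.41, limma adjusted p = 0.60). MYH4, the fast 2B myosin, ran from 1558 to 4246 FPKM at D9 and from 1736 to 5519 at D20 (log2 fold change 0.23, adjusted p = 0.99). As shares of the summed FPKM of 6 skeletal myosin heavy chains, MYH1 held 46.8% ± 3.92 at D9 and 34.5% ± 7.74 at D20 (SD, n = 3 each) and MYH4 held 27.4% ± 10.8 and 41.2% ± 13.7. MYH4 overlapped between the stages. The slow myosin MYH7 held 12.01% ± 5.38 and 13.4% ± 2.90.

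ARHGAP36, an inhibitor of protein kinase A in other cell types, had the smallest adjusted p of all genes named here. Its values were 9.94, 7.84 and 10.4 FPKM at D9 and 2.59, 1.25 and 0.760 at D20. All D20 libraries were below all D9 libraries, and the log2 fold change was -2.09 (SE 0.17, limma adjusted p = 3.9e-14). The stages after D20 stayed low, with a mean of 1.83 FPKM at D30 and 0.699 at D40, and the stage before D9 was higher, with 15.2 at D0. In the fit to the postnatal libraries the limma adjusted p was 1.7e-07, and in the 6 libraries alone it was 0.097. The same fits gave 0.0039 and 0.066 for INSIG1.

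**Figure D2:**
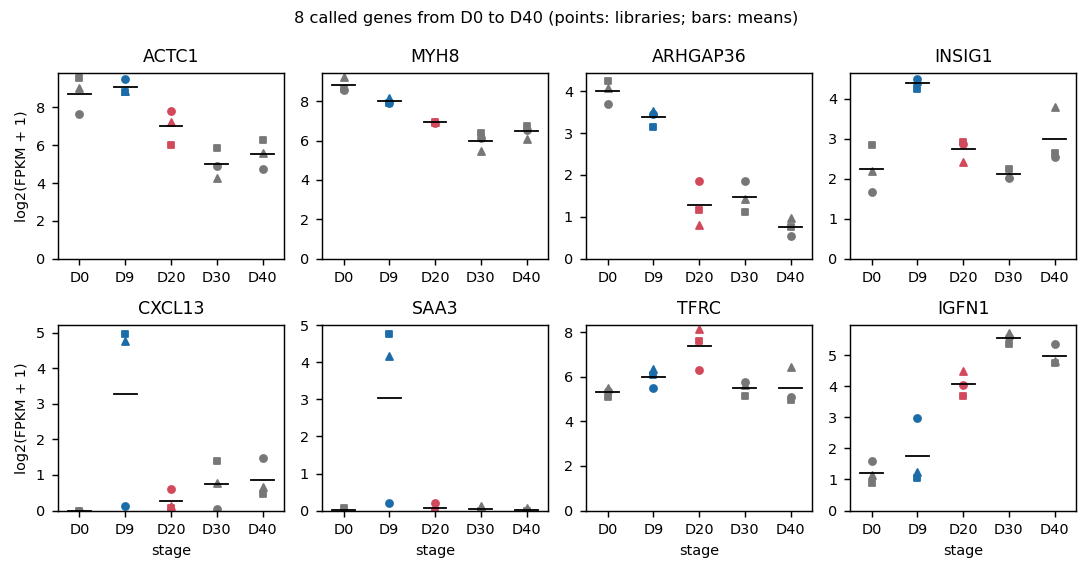
log2(FPKM + 1) of 8 called genes at D0, D9, D20, D30 and D40, 3 libraries a stage (points, shape by replicate number) with the stage mean (bar); D9 is blue, D20 red, other stages grey. ACTC1, MYH8 and ARHGAP36 are lower at D20 than at D9 and stay lower to D40, INSIG1 is highest at D9, and TFRC is highest at D20 in 2 of 3 libraries. CXCL13 and SAA3 are highest in replicates 2 and 3 of D9.

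INSIG1 and FDPS, which act in sterol synthesis, fell, and most other genes of the pathway lay lower at D20. INSIG1, which holds the sterol-sensing transcription factors back, had 21.7, 17.9 and 20.8 FPKM at D9 and 6.34, 6.63 and 4.34 at D20. The groups were far apart, with a log2 fold change of -1.65 (SE 0.21, limma adjusted p = 7.7e-07), and the call held in all 6 fits that left out a library. FDPS, which makes farnesyl diphosphate, had 50.8, 29.2 and 35.1 FPKM at D9 and 18.6, 16.9 and 16.4 at D20 (log2 fold change -1.07, SE 0.19, limma adjusted p = 4.7e-04). It was picked out after its values were seen and dropped to -0.85 without replicate 1 of D9.

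Of 24 listed genes of fatty acid and cholesterol synthesis, 22 had a log2 fold change below 0, with a median of -0.47. For 15 of them every D20 value was below every D9 value, against 8.75% of all genes tested. An unadjusted p below 0.05 in that direction was found for 13, against 6.03% of all genes tested. With no fold minimum, 4 passed at an adjusted p below 0.05, against the 0.717% of all genes in that direction, and INSIG1, CYP51 and IDI1 were among them. CYP51, a demethylase of the sterol pathway, had 23.8, 14.9 and 16.1 against 11.9, 7.84 and 8.81 (log2 fold change -0.87, adjusted p = 0.0032). IDI1, the isopentenyl diphosphate isomerase, had 23.5, 17.1 and 19.5 FPKM against 13.3, 13.8 and 9.83 (log2 fold change -0.66, adjusted p = 0.025). SCD, the fatty acid desaturase, had 7.50, 14.0 and 26.6 against 2.14, 5.14 and 5.45, which did not overlap and had an adjusted p of 0.21. FDFT1, the squalene synthase, had 16.3, 14.1 and 16.2 FPKM against 14.4, 20.3 and 13.0, which did. Summed over the list, FPKM was 211, 203 and 251 at D9 and 138, 142 and 134 at D20.

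MTHFD1 and EIF4EBP3, which belong to none of the gene lists, fell, as did CHAC1. MTHFD1, a trifunctional folate enzyme of the cytosol, had 27.7, 31.2 and 36.6 FPKM at D9 and 12.9, 14.5 and 14.96 at D20, with a log2 fold change of -1.11 (SE 0.18, limma adjusted p = 7.6e-05). EIF4EBP3, a repressor of cap-dependent translation, had 10.6, 9.76 and 9.97 FPKM at D9 and 2.72, 3.29 and 5.997 at D20 (log2 fold change -1.20, SE 0.20, limma adjusted p = 1.2e-04). The groups of both genes were separate. CHAC1, a glutathione-degrading enzyme of the amino acid stress response, had 2.52, 2.33 and 3.95 FPKM against 0.603, 0.363 and 1.08 (log2 fold change -1.22, SE 0.31, adjusted p = 0.028). CHAC1 was the only one called of 17 genes listed for the amino acid and ATF4 response. Of all genes tested, 0.19% were called lower. The list had a median of -0.35 and 13 members below 0. Without replicate 1 of D9, 4 of the list were called, against 86 of all 14220 genes tested. Without replicate 3 of D9, replicate 1 of D20 or replicate 2 of D20, none of the list was. CHAC1 itself then had an adjusted p of 0.26, 0.066 and 0.19.

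Immune genes were among those that fell, and SAA3, CXCL13, C2, CFB, CFP and IDO1, each described below, were higher in replicates 2 and 3 of D9 than in replicate 1. All 18 tested genes of the interferon response were below 0, with a median log2 fold change of -1.22. Of these, 1 was called, against 0.19% of all genes tested that were called lower. An unadjusted p below 0.05 was found for 12, against 6.03% of all genes in that direction. In 6 every D20 value was below every D9 value, against 8.75% of all genes. ISG15, a ubiquitin-like protein induced by interferon, had 28.4, 807 and 704 FPKM at D9 and 29.3, 16.7 and 29.8 at D20 (limma adjusted p = 0.059). Summed over the list, FPKM was 297, 2135 and 1725 at D9 and 427, 178 and 283 at D20. Without replicate 1 of D9, 7 of the 18 were called, against 86 of all 14220 genes tested. Without replicate 2 or 3 of D9, none of the 18 was.

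The acute-phase and complement genes had the same pattern across libraries. SAA3, an acute-phase protein, had 0.147, 26.3 and 16.9 FPKM at D9, was 0.144 in replicate 1 of D20 and was listed at 0 in the other D20 libraries (log2 fold change -2.98, SE 0.51, limma adjusted p = 2.8e-04, and 0.080 in the postnatal libraries). The groups were separated only by the third decimal, since replicate 1 of D9 stood just above replicate 1 of D20. CXCL13, a B-cell chemokine, had 0.0886, 30.2 and 26.4 FPKM against 0.517, 0.0490 and 0.0990 (log2 fold change -3.02, SE 0.64, adjusted p = 0.0045), and lost its call without replicate 2 (0.15) or 3 (0.16) of D9. The complement genes C2, 1.84, 19.9 and 12.4 FPKM against 2.14, 1.21 and 2.30, and CFB, 0.206, 6.88 and 3.45 against 1.24, 0.128 and 0.190, both overlapped between stages. Their adjusted p of 0.0059 and 0.049 became 0.23 and 0.65 without replicate 2 of D9, 0.12 and 0.35 without replicate 3 of D9, and 0.071 and 0.27 without replicate 2 of D20, and CFB was also lost without replicate 3 of D20 (0.23). CFP, which stabilises the complement convertase, had 1.94, 7.34 and 4.67 FPKM against 0.737, 0.606 and 1.89, with an adjusted p of 0.0015 that became 0.068 without replicate 2 of D9. IDO1, a tryptophan-degrading enzyme picked out after its values were seen, had 0.228, 1.99 and 1.94 against 0.110, 0.0463 and 0.0613 (log2 fold change -1.04, adjusted p = 5.1e-04), and fell short of the fold minimum without replicate 2 (-0.83) or 3 (-0.84) of D9.

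LOC100515902 also fell, with every D9 value above every D20 value. It is annotated as an MHC class I antigen-like chain, a family whose near-identical copies can share reads, and had 6.73, 17.4 and 14.1 FPKM at D9 and 0.486, 2.31 and 1.499 at D20 (log2 fold change -2.48, SE 0.45, limma adjusted p = 5.8e-04). GM2A, a lysosomal cofactor of ganglioside breakdown, had 10.1, 25.7 and 20.6 FPKM against 10.1, 3.71 and 5.11 (log2 fold change -1.44, adjusted p = 0.019), and its call was lost without replicate 2 or 3 of D9 or replicate 2 or 3 of D20 (adjusted p 0.11 to 0.20). General leukocyte markers gave no call: of 16 tested, 11 were below 0 with a median of -0.25, and their summed FPKM was 126, 202 and 155 at D9 and 162, 160 and 145 at D20. In bulk tissue, fewer cells of a type and less RNA per cell cannot be told apart. Among these markers, PTPRC was at 2.27, 7.83 and 5.64 FPKM at D9 and 4.20, 2.89 and 2.90 at D20. CD163, a macrophage marker, was at 7.63, 26.3 and 16.1 against 7.60, 8.41 and 11.5. Both overlapped between the stages and were highest in replicates 2 and 3 of D9. They do not stand for the list, whose summed FPKM also overlapped. In 1 of the 16 every D20 value was below every D9 value, against 8.75% of all genes tested. The part of PTPRC and CD163 in the immune result was not tested.

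**Figure D3:**
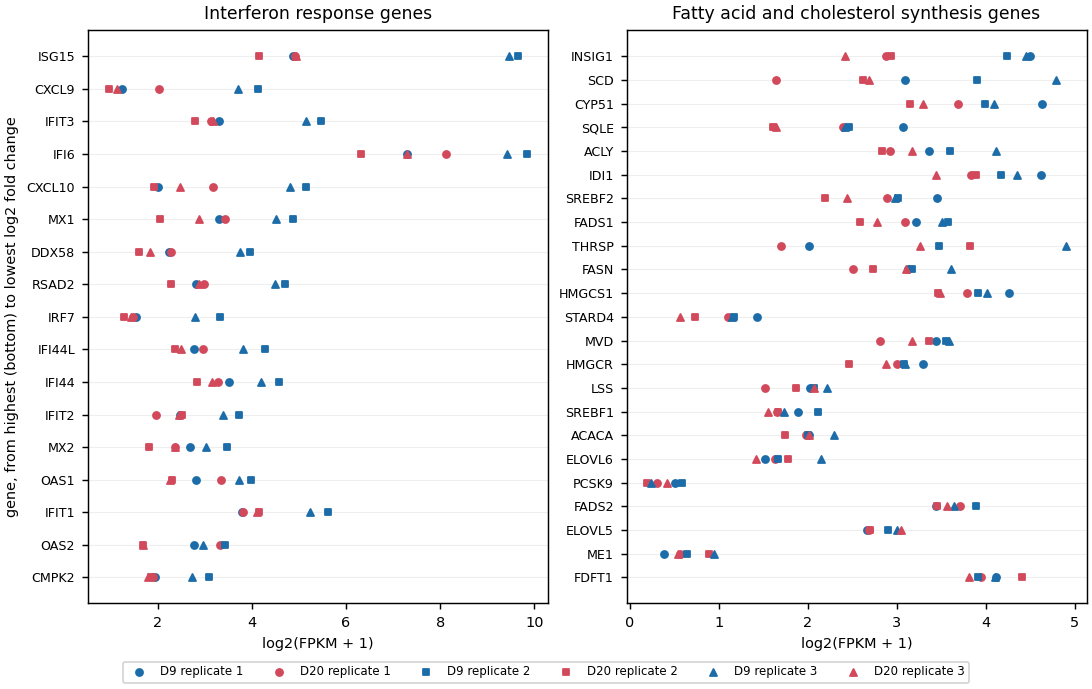
log2(FPKM + 1) of tested genes of 2 lists in each library, 1 gene of each left out, D9 in blue and D20 in red, with a marker shape for each replicate number; the left panel shows interferon response genes and the right panel genes of fatty acid and cholesterol synthesis. On the left, replicate 1 of D9 (blue circles) sits near the D20 libraries, and on the right all 3 D9 libraries sit above D20 for most genes, INSIG1, SCD, CYP51 and IDI1 among them.

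Other genes that fell were of mixed function. MYL9, a smooth-muscle-type regulatory light chain, had 27.9, 16.6 and 17.8 FPKM at D9 and 7.91, 4.94 and 7.30 at D20 (log2 fold change -1.48, SE 0.35, limma adjusted p = 0.017), and adjusted p of 0.10, 0.060 and 0.16 without replicate 1 of D9, replicate 3 of D9 or replicate 2 of D20. Of 8 smooth muscle markers none was called, and their median was -0.029. KCNAB1, a potassium channel beta subunit, had 6.65, 5.61 and 5.61 against 2.51, 2.43 and 2.22 FPKM (log2 fold change -1.04, adjusted p = 0.0034), and MYLK4, a myosin light chain kinase, had 5.18, 3.97 and 3.61 against 1.31, 1.05 and 2.24 (log2 fold change -1.07, adjusted p = 0.0084). Both were picked out after their values were seen, and both had groups that did not overlap. KCNAB1 was lost without replicate 1 of D9 or replicate 3 of D20, where its fold change slipped below 1, and MYLK4 without replicate 1 of D9 (adjusted p = 0.053) or replicate 2 of D20 (0.11). LOC110255581, an uncharacterised transcript, had 2.25, 2.11 and 1.94 FPKM against 0.264, 0.548 and 0.598 (log2 fold change -1.08, SE 0.12, adjusted p = 3.4e-09) and was -0.98 without replicate 1 of D20.

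An entry named LDHB, a lactate dehydrogenase subunit and 1 of 2 entries of that name (gene 100621540), which may share reads, had 17.0, 26.6 and 26.6 FPKM at D9 and 23.2, 2.62 and 2.80 at D20. XLOC_246832 had 9.96, 10.1 and 13.4 against 19.5, 0.519 and 0.382. In both, replicate 1 of D20 stood at or above the D9 level and the other D20 libraries far below it. Their limma adjusted p of 0.045 and 0.032 rose to 0.18 to 0.38 for LDHB and 0.089 to 0.47 for XLOC_246832 when replicate 2 or 3 of either stage was left out, and to 0.053 for XLOC_246832 without replicate 1 of D9. A further locus of the authors, XLOC_206766, had 4.92, 5.70 and 5.81 FPKM against 2.53, 1.01 and 3.55, with an adjusted p of 0.015 that became 0.067, 0.094 and 0.30 without replicate 2 of D9, replicate 3 of D9 or replicate 2 of D20.

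Among the genes that rose, IGFN1, an immunoglobulin and fibronectin domain protein of the muscle Z-disc, changed most of those with a known role. Its values were 6.82, 1.07 and 1.37 FPKM at D9 and 15.3, 11.9 and 21.3 at D20. Every D20 library was above every D9 library, and the log2 fold change was 2.31 (SE 0.41, limma adjusted p = 4.9e-04, and 0.080 in the postnatal libraries). Its mean was 46.3 FPKM at D30. In replicate 1 of D9 it was already 6.82, so its SD within D9, 1.06 on the log2 scale, exceeded the 0.523 pooled over stages.

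EMG1, a methyltransferase needed to build the small ribosomal subunit, had 54.3, 30.8 and 29.9 FPKM at D9 and 96.6, 102 and 77.3 at D20 (log2 fold change 1.28, SE 0.18, limma adjusted p = 7.5e-06). The groups did not overlap, and the D0 mean, 97.4 FPKM, was near that of D20. Ribosomal protein genes gave no call, and of 38, 34 were above 0 with a median of 0.13. An unadjusted p below 0.05 was found for 4, against 4.11% of all genes in that direction. In 11 every D20 value was above every D9 value, against 7.74% of all genes.

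TFRC, the receptor that brings iron into cells, had 44.5, 67.2 and 79.5 FPKM at D9 and 77.9, 196 and 284 at D20. Replicate 1 of D20 lay within the D9 range and the other D20 libraries above it. The log2 fold change was 1.38 (SE 0.31, limma adjusted p = 0.0087), and adjusted p of 0.077, 0.086 and 0.21 were found without replicate 1 of D9, replicate 2 of D20 or replicate 3 of D20. Of 10 tested erythroid markers none was called, and their summed FPKM was 1553, 2299 and 1895 at D9 and 1521, 2060 and 1695 at D20.

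CCL21, PMP2 and RGS4 also rose. CCL21, a chemokine of lymphatic endothelium, had 3.84, 3.64 and 1.48 FPKM at D9 and 14.4, 7.21 and 9.78 at D20 (log2 fold change 1.54, SE 0.36, limma adjusted p = 0.015). PMP2, a fatty acid carrier of myelin, had 1.40, 3.17 and 1.91 FPKM against 5.996, 3.59 and 8.38 (log2 fold change 1.12, SE 0.24, adjusted p = 0.0045). RGS4, which shortens G-protein signals, had 1.75, 1.42 and 0.824 against 2.90, 3.77 and 5.12 (log2 fold change 1.08, SE 0.23, adjusted p = 0.0043). All 3 had groups that did not overlap. CCL21 had adjusted p of 0.23, 0.090 and 0.054 without replicate 3 of D9, replicate 1 of D20 or replicate 3 of D20. PMP2 was lost without replicate 3 of D20 (0.12) and, with a fold change of 0.94, without replicate 1 of D9, and RGS4 without replicate 3 of D9 (0.094) or replicate 3 of D20 (0.082). Of 10 tested nerve and Schwann cell markers none was called, 9 were above 0 and 4 had an unadjusted p below 0.05 in that direction, against 4.11% of all genes. S100B, a Schwann cell calcium-binding protein, had 5.42, 7.90 and 5.86 FPKM against 7.57, 11.0 and 13.3 (log2 fold change 0.64, adjusted p = 0.017).

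Uncharacterised transcripts made up the rest of the 13 that rose. LOC110261592 had 6.31, 5.99 and 5.20 FPKM at D9 and 21.4, 21.1 and 17.98 at D20 (log2 fold change 1.63, SE 0.26, limma adjusted p = 6.5e-05), and was the only gene also called in the 6 libraries alone (adjusted p = 0.015). LOC106509199 had 1487, 1799 and 707 FPKM at D9 and 31398, 3402 and 3163 at D20. Replicate 1 of D20 was alone far above, but all D20 values exceeded all D9 values (log2 fold change 2.49, SE 0.49, adjusted p = 0.0020). The postnatal libraries outside D9 and D20 had 9195 to 30485 FPKM of it, with a median of 16107. Replicate 1 of D20 was thus just above their highest value, and the D9 libraries and replicates 2 and 3 of D20 were below their lowest. Without replicate 1 of D20 the log2 fold change was 1.41 (adjusted p = 0.11), and without replicate 3 of D9 it was 2.09 (0.066). LOC110260979 ran from 2.28 to 7.08 FPKM at D9 and from 8.31 to 17.1 at D20, and lost its call without replicate 2 or 3 of D9 or replicate 2 of D20 (adjusted p 0.094 to 0.21). The authors' loci XLOC_072253, XLOC_123187, XLOC_096824 and XLOC_382172 also rose, by 1.29, 1.18, 1.13 and 1.22 on the log2 scale, and only XLOC_072253 kept its call in all 6 fits.

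Several other programs gave no call. Of 30 cell cycle genes none was called (median -0.010, none at an unadjusted p below 0.05), and MKI67, a marker of dividing cells, had 1.29 to 2.23 FPKM at D9 and 1.33 to 1.91 at D20. Of 27 extracellular matrix genes none was called, with a median of 0.0093. Of 19 genes of glycolysis and glycogen none was called, 16 were above 0 and the median was 0.39. Of the 19, 4 had an unadjusted p below 0.05, against 4.11% of all genes in that direction. GAPDH had 3228, 3003 and 3293 FPKM at D9 and 3125, 6019 and 5825 at D20. In the oxidative phosphorylation list, 33 tested genes had a median of 0.018 and no call. IGF2, a fetal growth factor, had 80.3, 71.0 and 58.6 FPKM at D9 and 30.1, 39.7 and 53.8 at D20, which did not overlap (log2 fold change -0.78, limma adjusted p = 0.33). MSTN, the inhibitor of muscle growth, had 23.9, 14.7 and 16.6 against 20.8, 40.05 and 21.0, and PPARGC1A, a regulator of mitochondrial content, 1.65, 1.59 and 2.54 against 2.75, 1.06 and 1.69. Among 14 immediate early genes, which respond within minutes to handling and other stimuli, 12 were below 0 with a median of -0.47 and no call. Their summed FPKM was 89.9, 378 and 445 at D9 and 140, 74.4 and 179 at D20, again lowest at D9 in replicate 1.

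Liver transcripts were present in replicate 1 of D20 and in no other of the 6 libraries at that level. ALB, serum albumin, had 0.0676, 0.122 and 0.0379 FPKM at D9 and 11.4, 0.0315 and 0.0496 at D20, and FGB, a fibrinogen chain, 0.0603, 0.107 and 0.0302 against 3.28, 0.0589 and 0.0501. In replicate 1 of D20, 15 of 21 liver markers stood at least 5 times above their highest D9 value, against 0 and 1 in the other D20 libraries. Summed without APOA1, which skeletal muscle of all 6 libraries held at 37.4 to 55.2 FPKM, the markers came to 4.23, 4.32 and 3.21 FPKM at D9 and 37.1, 4.27 and 5.54 at D20. The 3 D30 libraries had 22.0 to 49.5 FPKM of ALB, and the 27 postnatal libraries outside D9, D20 and D30 had a median of 0.0373 and a highest of 25.8. None of the liver markers was called, with an adjusted p of 0.47 for ALB and 0.38 for FGB. The complement genes C2 and CFB are made in liver as well as in immune cells, and in replicate 1 of D20 CFB was 1.24 against 0.128 and 0.190 FPKM in the other D20 libraries. The part of liver RNA in their values was not tested. Without replicate 1 of D20, 34 of the 40 calls held and 27 further genes were called.

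**Figure D4:**
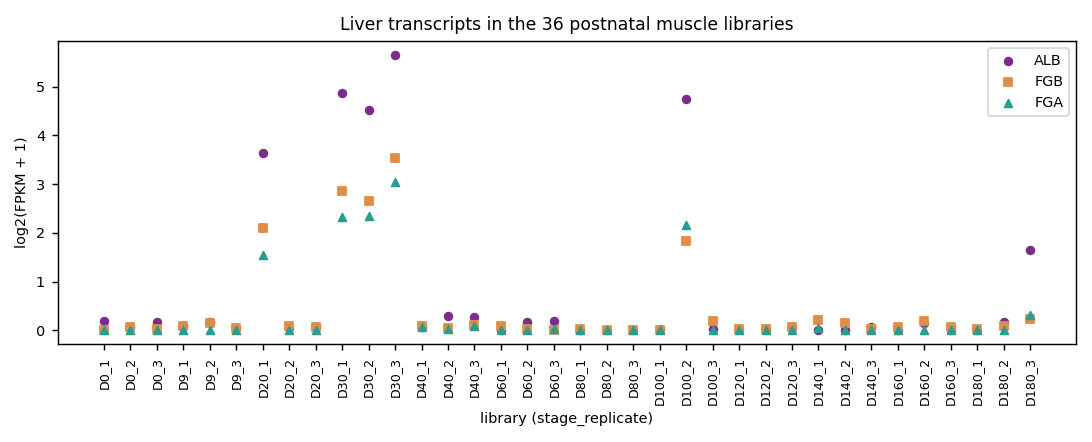
log2(FPKM + 1) of the liver transcripts ALB, FGB and FGA in each of the 36 postnatal libraries, in order of stage. They stand above the other libraries in replicate 1 of D20, in all 3 libraries of D30 and in replicate 2 of D100. ALB is also raised, to a lower level of 2.13 FPKM, in replicate 3 of D180.

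D20 was also set against the mean of D9 and D30, which shares the D9 and D20 libraries with the comparison above. Here 58 of 14220 genes were called, 0.408% of those tested, 34 higher and 24 lower. The 34 higher were 0.239% of all genes tested. Of them, 23 were annotated as histones, the proteins that package newly copied DNA, out of 55 histone genes tested. All 23 histone calls were higher. Their summed FPKM was 2280, 1984 and 1410 at D9, 3187, 2200 and 2439 at D20, and 642, 1130 and 405 at D30, so the D30 libraries were the low ones. TOP2A, a topoisomerase of dividing cells, had 14.0, 12.3 and 9.69 FPKM at D9, 16.3, 9.50 and 10.4 at D20 and 2.03, 2.85 and 0.786 at D30. Histone genes occur in near-identical copies that can share reads. Of the 58, 7 had every D20 value outside all 6 values of D9 and D30. The same count over all genes tested is not given here, so whether 7 is many or few cannot be said.

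The genes lower at D20 included 3 of the 14 immediate early genes, JUN, ATF3 and BTG2, against 0.169% of all genes tested. ATF3, a stress-induced transcription factor, had 4.25, 24.3 and 32.4 FPKM at D9, 2.31, 1.21 and 10.9 at D20 and 36.4, 154 and 60.6 at D30 (log2 difference -2.95, SE 0.685, limma adjusted p = 0.0096). OTUD1, a deubiquitinase, had 4.08, 69.7 and 75.8, then 5.61, 2.58 and 17.99, then 104.7, 258 and 102 FPKM. D30 was high in every library, and D9 was low in replicate 1 alone. XIRP1, an actin-binding protein of stretched or injured fibres, had 11.3, 13.1 and 15.04 FPKM at D9, 6.95, 4.404 and 10.4 at D20 and 21.6, 95.8 and 62.5 at D30, with no overlap between D20 and either neighbour. Without replicate 1 of D20 or replicate 3 of D30, 27 genes were called in place of 58. A fit to the 9 libraries of the 3 stages called 1 gene, and a fit to the postnatal libraries called 3.

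**Figure D5:**
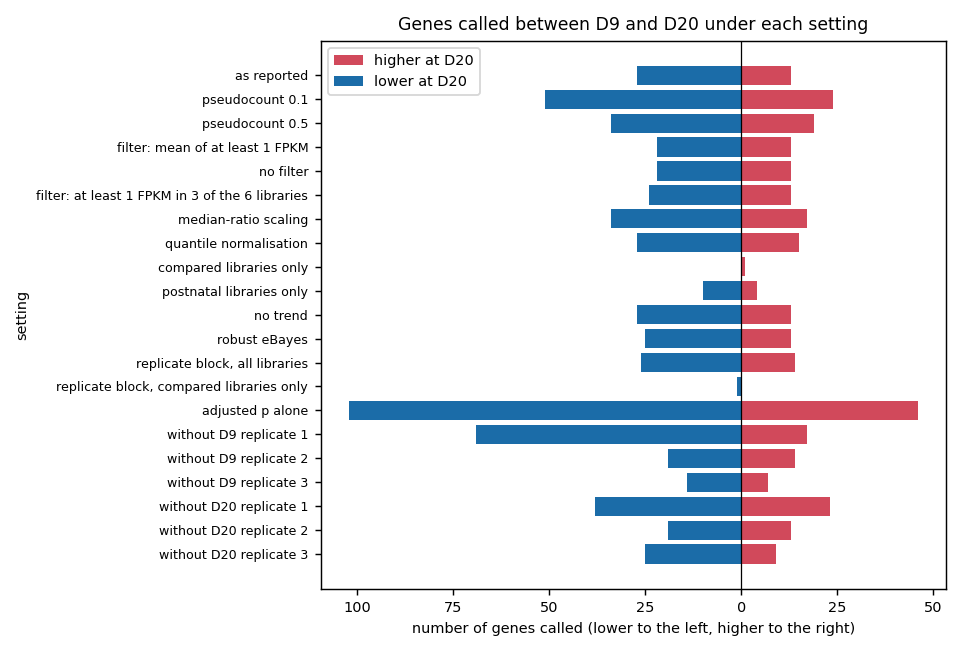
Number of genes called between D9 and D20 under each setting of the analysis, lower at D20 to the left (blue) and higher to the right (red), counted from 0. The count is 40 as reported, 1 when the 6 libraries are fitted alone and 86 without replicate 1 of D9.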

How the data were processed

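The deposited table holds FPKM per gene and library, which the authors scaled by transcript length and sequencing depth. StringTie 1.3.1, HISAT2 2.0.4 and Trimmomatic are listed per the submitters' processing notes. The genome build is not given in the sources used here; coordinates and sequences are therefore left out. Because FPKM are relative, a transcript that takes a larger share lowers all others. The table has no read counts, so no counting interval was computed.

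Of 28325 entries, 264 repeats of 248 gene IDs with identical values were dropped, leaving 28061 genes. The 14220 genes that reached 1 FPKM in 3 or more libraries were fitted on the log2(FPKM + 1) scale in R 4.3.3 using limma 3.58.1. The model had 27 stage means over 81 libraries (54 residual degrees of freedom) and a variance trend. Tests were two-sided, with p-values adjusted by the Benjamini-Hochberg method across the genes fitted. This scale understates changes of genes near or below 1 FPKM.

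The 33 gene lists (539 of 548 entries matched, 21 of them by RefSeq product name) and the genes compared were chosen with earlier results of these data known. The genes named are all called genes with a symbol, up to 20 a direction by size of change, the 5 most extreme a direction of D20 against the mean of D9 and D30, every called list member, and 12 genes given whether called or not. Lists are described by counts and medians with no set test. Alternatives varied the pseudocount, filter, scaling, libraries fitted, variance model, replicate block, fold minimum and left-out library. Some genes that entered the fits and counts are not reported here by name.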

Additional observations from a re-analysis of the deposited data

Results flagged for a closer look

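A change that differed between the step from D9 to D20 and the step from D20 to D30 brought 19 genes to attention. They are the genes named by the rules above among the 58 called against the mean of D9 and D30. Each value is the log2 difference of D20 from the mean of D9 and D30. These 19 genes had a limma adjusted p below 0.05 and also reached the fold minimum used for calls.

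Above the mean of both neighbours stood the transferrin receptor TFRC (1.62), the uncharacterised LOC110261592 (1.20), the cell division gene TOP2A (1.10) and the histone genes LOC110261668 (1.5), LOC110261672 (1.48), LOC100156932 (1.45) and LOC110261674 (1.42).

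Below that mean stood the early response and stress genes OTUD1 (-3.09), ATF3 (-2.95), BTG2 (-2.23) and JUN (-1.31), the fibre genes XIRP1 (-1.78) and FBXO32 (-1.14), ARHGAP36 (-1.14), and the authors' locus XLOC_189159 (-2.76), which was listed at 0 in 5 of the 6 D9 and D20 libraries. The immune genes LOC100515902 (-1.94), SAA3 (-1.48), C2 (-1.38) and CFB (-1.03) were lower too. In ARHGAP36 the means were 9.41, 1.53 and 1.83 FPKM at D9, D20 and D30, and in SAA3 14.4, 0.0479 and 0.0297, with D9 far above both later stages. In XLOC_189159 and FBXO32, D30 was the high stage. XLOC_189159 had 43.2, 55.6 and 33.6 FPKM at D30. FBXO32 had 3.61, 5.01 and 3.73 FPKM at D9 and 2.18, 3.44 and 3.95 at D20, which overlapped, and 10.5, 14.4 and 23.5 at D30. All 3 D30 libraries held liver transcripts, and their part in these values was not tested.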

How the results depend on the processing

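The number of genes called between D9 and D20, 40, was 75 at a pseudocount of 0.1, 148 at an adjusted p alone, 14 in the postnatal libraries and 1 in the 6 libraries alone, and ran from 21 to 86 when 1 library was left out. The 58 called against the mean of D9 and D30 became 119, 425, 3 and 1 under the same settings and ran from 27 to 81. List members called, 8 in the first comparison, were 2 in the postnatal libraries and 0 in the 6 alone, and ran from 3 to 17. The count of genes whose D9 and D20 values do not overlap, 2345, became 3025 to 4774 with a library left out, fewer values having to separate. The summed liver markers of replicate 1 of D20 were 76.2 FPKM, and 94.6 under median-ratio scaling. Other filters, scalings and variance models gave 35 to 51 calls, and no result reversed. The causes were not tested. Depth is known only in relative terms, which limits what can be said of genes near 0.

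No sign of pairing by replicate number was seen. Same-numbered libraries of D9 and D20 deviated from their stage means with correlations of 0.0739, -0.0610 and -0.0264. Differently numbered ones had -0.113 to 0.155. With 3 libraries a stage these values cannot exclude a pairing, and the labels state none. A replicate block over all libraries gave 40 calls between D9 and D20, 39 of them shared with the fit without it, and 57 against the mean of D9 and D30. A block in the compared libraries alone gave 1 call in each comparison and 0 list members. Between D9 and D20 that call was lower at D20, so LOC110261592, called without the block, was not called with it.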
